A study of Rattus norvegicus with 8 samples.

Results

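The genes of the proteasome and of ubiquitin conjugation were compared between the orbital and the global layer of the extraocular muscles, which move the eye, in adult rats. Members were taken by symbol alone: every gene whose name starts with Psma, Psmb, Psmc, Psmd, Psme or Ube2, and the muscle ubiquitin ligases Trim63 and Fbxo32. A gene counted when a probe set of the array had its symbol and no other, and it was read from its brightest probe set by the mean over all captures. This gave 67 genes, on 82 probe sets, of 10411 genes named on the array, and 62 of the 67 were bright enough to be tested, of 7163 genes tested in all. The orbital layer lies on the side of the orbital bone and the global layer on the side of the eyeball. Pieces of the layers were taken by laser microdissection. The RNA of 4 global and 4 orbital captures was amplified by T7 transcription (RiboAmp OA) and read on 1 rat RAE230A array per capture, and no treatment is named. The sources used here do not give strain, sex, genotype or the number of animals. The titles carry a prefix, R2 or R3, on 2 captures of each layer, whose meaning is not given. The p-values describe the spread among these 8 captures alone, and would be too small where an animal gave several of them.

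The proteasome is the large protease that degrades most short-lived and damaged proteins of the cytosol. Its 20S core is a barrel of alpha rings outside and beta rings inside, with the cutting sites on the beta subunits, and the 19S cap uses a ring of ATPases to unfold a substrate and feed it into the core. Substrates are marked with ubiquitin, which passes from an E1 enzyme to an E2 enzyme (the Ube2 family) and, with a ligase (E3) that picks the substrate, to the target. In skeletal muscle this system removes sarcomeric proteins, and Trim63 (MuRF1) and Fbxo32 (atrogin-1) are the ligases best known for their rise in wasting muscle.

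The intensities are on a linear scale, and the median over probe sets was between 58.8 and 66.3 on the 8 arrays. Differences are mean log2(intensity + 1) of the orbital captures minus that of the global captures, given ± the SE of the fit over 4 captures in each layer. A difference passed when limma's p-value, adjusted by Benjamini-Hochberg over 9520 probe sets, was under 0.05. All 10 markers of skeletal muscle on the array were bright enough to be tested. The summed intensity of these markers was 60209 to 85687 in the global and 53377 to 79498 in the orbital captures. Summed markers of immune cells (17 genes) were 1864 to 3124 and 1953 to 2544, those of endothelium (9) 1286 to 1542 and 1316 to 1905, and those of fibroblasts (8) 4308 to 7900.1 and 5821 to 9038. Those of smooth muscle and pericytes (7) were 849 to 1014 and 485 to 867, of Schwann cells (5) 1161 to 4787 and 2283 to 4979, of red blood cells (2) 235 to 1094 and 246 to 708, and of photoreceptors (4) 36.7 to 923 and 383 to 1610. These sums overlapped between the layers for every marker list, but single markers moved with the layer. Of the muscle markers Mb passed as higher (0.82) and Ttn as lower (-0.70) in the orbital layer, and 5 of 10 had an unadjusted p under 0.05. Eng (1.29) passed among the endothelial markers, of which 8 of 9 lay above 0, beside 3813 of 7163 genes tested. Global captures 1, 3 and 4 of Eng had 20.2, 27.3 and 33.6, under the intensity of 39.4 at which the filter was set. Eng was thus tested through its level in the orbital captures, and the size of its difference is uncertain. Fbln1 (0.70) passed among the fibroblast markers, which had a median of 0.40 and 4 of 8 at an unadjusted p under 0.05. Myh11 of smooth muscle passed as lower (-1.39). The tested Schwann cell and photoreceptor markers had medians of 0.66 and 1.39, and 0 of 4 and 0 of 3 passed limma's test, with 0 at an unadjusted p under 0.05 in both. The Gapdh 3′ to 5′ ratio, a measure of RNA shortening, was 5.79 ± 0.478 (SD, n = 4) in the global and 8.41 ± 3.21 in the orbital captures (exact permutation test, two-sided, p = 0.114), with 12.9 in orbital capture 3 and 8.64 in orbital capture 4. The beta-actin 3′ to 5′ ratio did not show this pattern. It was 9.61, 7.69, 7.93 and 10.7 in the global and 7.87, 9.16, 8.32 and 8.37 in the orbital captures. The part of other cell types and of RNA quality in the results below was not tested. In tissue captures, fewer cells of a type and less RNA per cell cannot be told apart.

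Most members did not pass, and those that did were lower in the orbital layer more often than higher. Of 62 tested members, 5 were lower in the orbital layer (Ube2d1, Ube2q2, Ube2g1, Ube2b and Psma6), 2 were higher (Psmd10 and Ube2o) and 55 did not pass. That is 8.06% lower and 3.23% higher, where 3.59% of all genes tested were lower and 4.09% higher, and 11.3% called in all against 7.68% of genes (7.41% of probe sets, 3.91% higher and 3.50% lower). The median difference of the members was -0.14 and that of all genes tested 0.02, with 45 members below 0 and 17 above. Only Ube2d1 differed at least 2-fold. All 4 captures of a layer lay beyond all 4 of the other for 12 members (19.4%, against 14.3% of all genes), 10 of them lower in the orbital layer (16.1%, against 6.80%) and 2 higher (3.23%, against 7.48%). An unadjusted p under 0.05 was reached by 17 members (27.4%, against 21.9% of all genes). The counts were 1 lower and 0 higher with orbital captures 1 and 2 alone, where the probe sets called fell from 705 to 363.

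**Figure D1:**
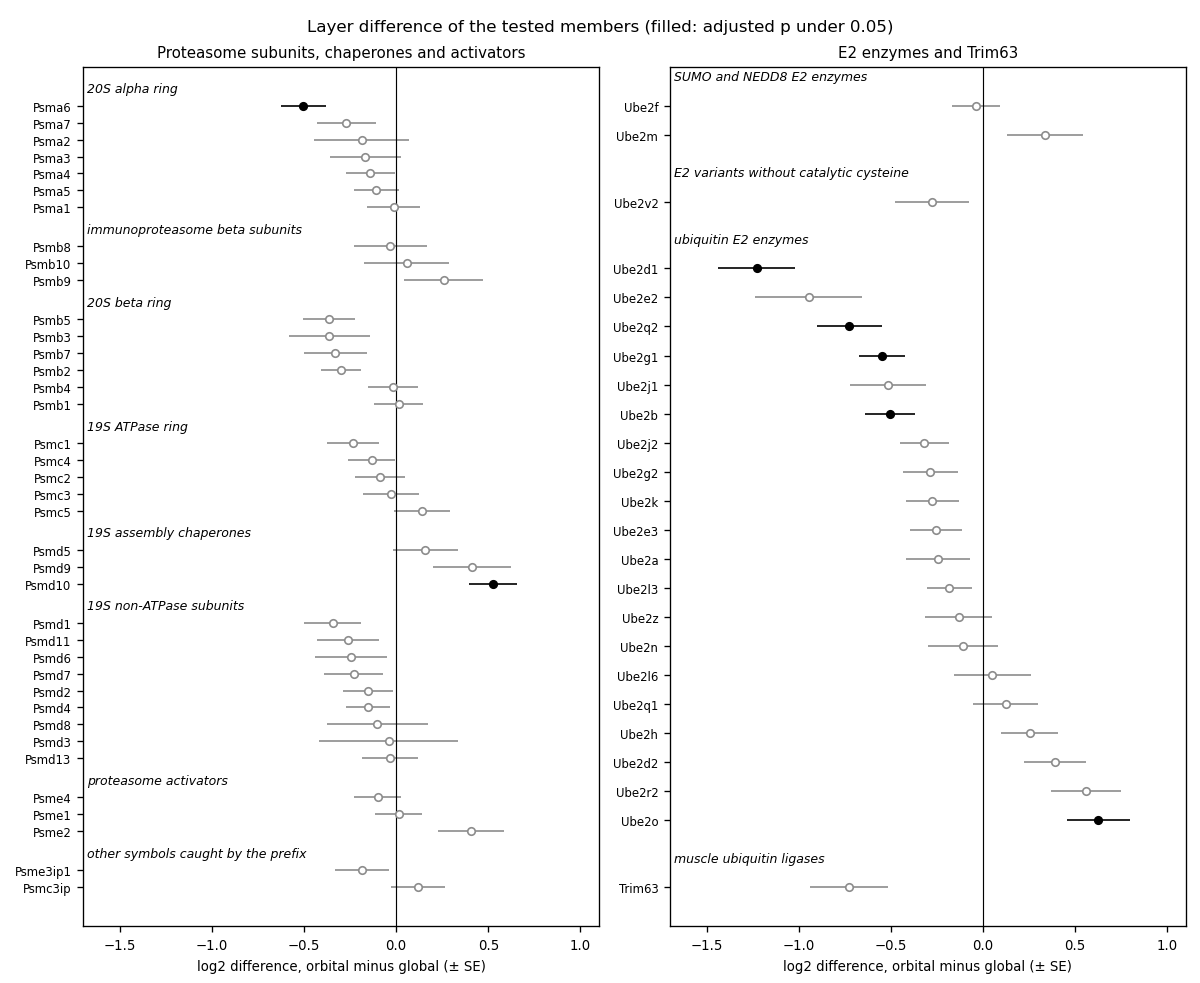
Log2 difference of orbital minus global layer (x axis) for the 62 tested members, by role (rows), with bars of 1 SE and filled points for those with an adjusted p under 0.05. Points of the 20S and 19S subunits lie mostly a little left of 0, with Psma6 the filled one, the 19S assembly chaperones lie right of 0, and the E2 enzymes run from -1.23 (Ube2d1) to 0.63 (Ube2o).

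The subunits of the constitutive 26S proteasome lay slightly lower in the orbital layer almost throughout, and 1 of them passed. Of 27 tested, 25 had a difference below 0, with a median of -0.15 and a range of -0.51 to 0.14. Of all genes tested, 3350 of 7163 lay below 0 and 3.59% passed as lower. A count of 1 in 27 is not set apart from that last share. Psma6, an alpha subunit of the outer rings, was the member that passed. Its intensity was 1755, 1718, 1412 and 1611 in the global and 1293, 1102, 1115 and 1064 in the orbital captures, so the layers did not overlap. The means were 1624 ± 154 (SD, n = 4) and 1143 ± 102, a log2 difference of -0.51 ± 0.12 (SE, adjusted p = 0.0231). It did not pass when global 1, global 2, orbital 2, orbital 3 or orbital 4 was left out (adjusted p 0.0508 to 0.0797). The other 6 alpha subunits differed by -0.27 (Psma7) to -0.01 (Psma1). Psma7 had 867.5, 1023, 741 and 1092 in the global and 979.9, 660.4, 698 and 749 in the orbital captures, which overlap (adjusted p = 0.354).

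The sequence before the start of Psma6 is shown as that of the core subunit that passed, and those of 3 further members follow where they are described. It is from RefSeq (GRCr8), chr6:78514097-78514346, plus strand, 5′ to 3′, the 250 bases before the annotated start, with no match to the motifs described below:
Psma6: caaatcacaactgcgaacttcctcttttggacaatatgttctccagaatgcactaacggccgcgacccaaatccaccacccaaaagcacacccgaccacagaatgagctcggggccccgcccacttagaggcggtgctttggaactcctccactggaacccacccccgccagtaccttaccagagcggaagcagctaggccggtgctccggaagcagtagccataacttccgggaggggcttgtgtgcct

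Among the beta subunits tested, of which Psmb5 and Psmb7 carry cutting sites, 5 of 6 had a difference below 0. Of these 6 subunits 0 passed limma's test, with 2 (Psmb2 and Psmb5) at an unadjusted p under 0.05. Psmb5, the subunit with chymotrypsin-like activity, had 1792, 2197, 2209.5 and 2016 in the global and 1585, 1379, 1460.2 and 1994 in the orbital captures. The layers overlapped through orbital capture 4, and the difference was -0.37 ± 0.14 (adjusted p = 0.144). Psmb7, with trypsin-like activity, had 444, 621, 527 and 471 against 556, 322, 392 and 389 (-0.33 ± 0.17, adjusted p = 0.288). Psmb2 had 715, 694, 693 and 709 in the global and 615, 569.8, 529.6 and 573 in the orbital captures, which do not overlap. Its difference was small (-0.30 ± 0.11) and did not pass (adjusted p = 0.124). Psmb3 differed by -0.37, Psmb4 by -0.02 and Psmb1 by 0.01.

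In the 19S cap 0 of the 5 ATPases and 0 of the 9 non-ATPase subunits passed limma's test, with 0 and 1 (Psmd1) at an unadjusted p under 0.05, and 13 of these 14 had a difference below 0. Among the ATPases, Psmc1 had 788, 620.2, 793 and 830.5 in the global and 758, 532, 623 and 664 in the orbital captures (-0.24 ± 0.14, adjusted p = 0.367). Psmc4 had 413, 368, 389.8 and 484 against 386, 352, 401 and 362 (-0.13 ± 0.13, adjusted p = 0.598). The layers overlapped for both genes, and Psmc2 differed by -0.09, Psmc3 by -0.03 and Psmc5 by 0.14. Psmd1, a scaffold subunit of the cap's base, had 171, 171, 216 and 162.5 against 158, 122, 156 and 131. Its layers did not overlap, with a difference of -0.35 ± 0.15 (adjusted p = 0.211). Psmd11, a subunit of the lid whose amount is known to limit 26S assembly in stem cells, had 811.5, 1073, 990.5 and 1027 in the global and 773, 1117, 782 and 633 in the orbital captures. Orbital capture 2 was the highest of all 8, and the difference was -0.26 ± 0.17 (adjusted p = 0.395), from -0.42 without orbital capture 2 to -0.14 without orbital capture 4. Its second probe set differed by -0.30. The other subunits, Psmd2, Psmd3, Psmd4, Psmd6, Psmd7, Psmd8 and Psmd13, differed by -0.25 to -0.03.

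The small shift of these subunits was not even over captures. Against each gene's mean over the 8 captures, the median deviation of the 27 subunits was between 0.03 and 0.16 log2 units in the 4 global captures. It was -0.18, -0.15 and -0.13 in orbital captures 2, 3 and 4 but 0.15 in orbital capture 1, which was thus like the global captures. The median of all genes tested was between -0.01 and 0.04 in the 8 captures. Orbital capture 2 was the lowest of the 8 for 12 of the 27 subunits (44.4%) and for 10.3% of all genes tested. Within the titles' prefixes, 21 of 27 subunits lay below 0 for R2 (median -0.10) and 21 for R3 (median -0.25). Without orbital capture 2, 20 of 27 lay below 0, with a median of -0.12, and over the captures left out in turn 20 to 25 did. Without orbital capture 1 the median of the subunits was -0.24. With orbital captures 1 and 2 alone it was -0.096, and that of all members -0.069.

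**Figure D2:**
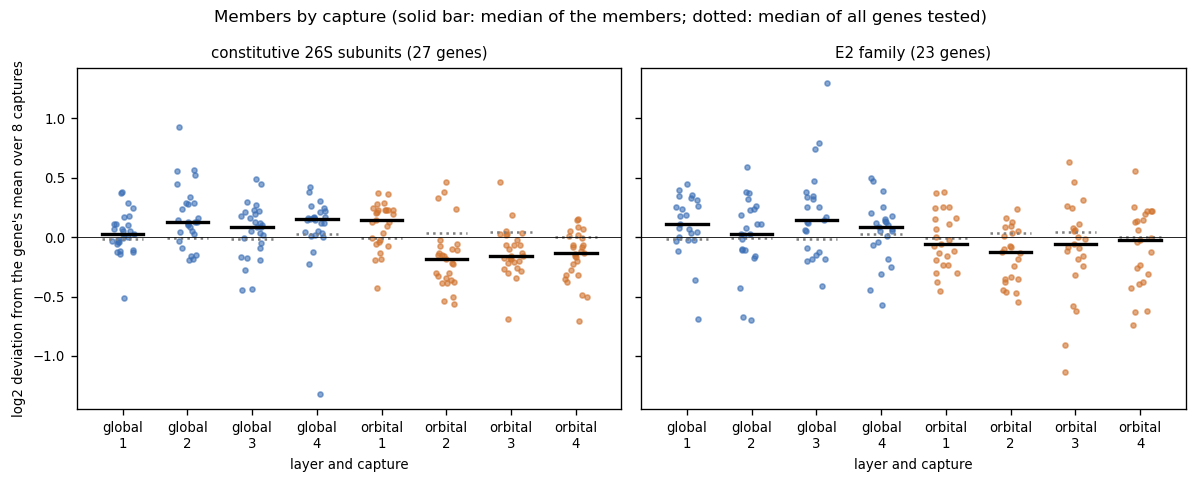
Log2 deviation of each gene from its mean over the 8 captures (y axis) in each capture (x axis), for the 27 constitutive 26S subunits and the 23 tested genes of the E2 family. Solid bars are the medians of these genes and dotted bars those of all genes tested, and for the 26S subunits the median lies below 0 in orbital captures 2, 3 and 4 and above 0 in orbital capture 1 and the 4 global captures.

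The chaperones that assemble the 19S base lay on the other side of 0 from most subunits. All 3 had a difference above 0, with a median of 0.41, and 1 passed. Of all genes tested, 3813 of 7163 lay above 0 and 4.09% passed as higher. From 3 genes these counts are not set apart from those shares. Psmd10 (gankyrin), which holds the ATPase Psmc4 during assembly and is known as an oncoprotein, had 246, 258, 219 and 289 in the global and 391, 337, 392 and 336 in the orbital captures. No orbital capture overlapped the global ones, and the means were 253 ± 28.9 (SD, n = 4) and 364 ± 31.4, a difference of 0.53 ± 0.13 (adjusted p = 0.0278). It did not pass when global 1, global 3, orbital 1 or orbital 3 was left out (adjusted p 0.0728 to 0.0848). Psmd9 had 68.4, 53.3, 43.5 and 59.2 against 89.8, 79.3, 61.0 and 68.7 (0.41 ± 0.21, adjusted p = 0.294), with overlap, and Psmd5 differed by 0.16 (adjusted p = 0.667). Psmd10 was the proteasome gene that passed as higher in the orbital layer, and the 250 bases before its start on chrX:109453606-109453855, minus strand (RefSeq, GRCr8, 5′ to 3′), are given for comparison with Psma6, again without a motif match:
Psmd10: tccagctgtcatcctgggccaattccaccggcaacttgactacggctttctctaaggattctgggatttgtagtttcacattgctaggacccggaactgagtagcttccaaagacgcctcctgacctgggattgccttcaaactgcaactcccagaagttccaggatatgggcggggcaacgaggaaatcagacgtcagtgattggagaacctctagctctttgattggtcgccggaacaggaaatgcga

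Of the 3 beta subunits that interferon induces 0 passed limma's test, and 0 had an unadjusted p under 0.05. In the immunoproteasome Psmb8, Psmb9 and Psmb10 replace Psmb5, Psmb6 and Psmb7, which changes the peptides offered to T cells. Psmb8 had 88.4, 114, 95.7 and 137 in the global and 85.0, 141, 100.3 and 101 in the orbital captures (-0.03 ± 0.20, adjusted p = 0.946). Psmb9 had 69.3, 52.4, 51.9 and 75 against 56.8, 72.6, 79.2 and 89.7 (0.26 ± 0.21, adjusted p = 0.536). Psmb10 had 76.0, 138, 71.9 and 99.0 against 92.6, 89.1, 132 and 80.8 (0.06 ± 0.23, adjusted p = 0.916). The captures of the layers overlapped for all 3 genes, and the sign of Psmb8 and Psmb10 turned on leaving out single captures.

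Of the 3 activators, which open the 20S barrel without ubiquitin, 0 passed as well, with Psme2 at an unadjusted p under 0.05. Psme1 and Psme2 form the interferon-inducible PA28 ring, and Psme1 had 497, 522, 523 and 420.1 in the global and 575, 479, 471 and 456 in the orbital captures (0.01 ± 0.13, adjusted p = 0.968). Psme2 had 362, 492, 447 and 379 against 591, 578, 387 and 705 (0.41 ± 0.18, adjusted p = 0.203). Of its orbital captures, capture 3 was at the global level and the other 3 were above every global capture. Without orbital capture 3 it passed (0.58, adjusted p = 0.0485), and in the other 19 of 20 alternatives it did not. Psme4, the activator PA200, had 458, 547, 516.5 and 468 against 491.5, 390.2, 504 and 473, which overlap. It differed by -0.10 ± 0.13 (adjusted p = 0.705), by 0.01 and by -0.21 at its other probe sets. Ube2l6, the E2 of the interferon-induced modifier Isg15, differed by 0.05 ± 0.21 (adjusted p = 0.917). Of 22 tested genes of the interferon response and antigen presentation, 0 passed in either direction, with a median of -0.06 and 7 at an unadjusted p under 0.05. Those 7 were Ifitm3, B2m, Ifi27, Irf7 and Stat2, higher in the orbital layer, and Rsad2 and RT1-Da, lower. Of all genes tested 21.9% reached such a p. Of 12 tested immune cell markers 0 passed, with 1 at an unadjusted p under 0.05.

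The promoters of the members were searched for the interferon response motif, taken as 2 copies of GAAA with any 2 bases between them, on both strands, in the 300 bases from 250 before to 50 after the start. It was found in the promoter of 3 of the 6 interferon-inducible members (Psmb8, Psmb10 and Psme2), in 3 of 25 constitutive subunits (Psma4, Psmb3 and Psmd7) and in 0 of 23 E2 genes, against 3.77% of 27457 promoters. The matches, in capitals with 10 bases on each side, are printed for the 3 interferon-inducible members that have 1, with Psmb3 as a constitutive subunit beside them, each 5′ to 3′ on the gene's strand from RefSeq (GRCr8); TTTC marks a match on the other strand. Their positions are chr20:4657016-4657045 (Psmb8, minus strand), chr19:50743346-50743375 and chr19:50743290-50743319 (Psmb10, minus), chr15:33052785-33052814 (Psme2, minus) and chr10:83193634-83193663 (Psmb3, plus):
Psmb8: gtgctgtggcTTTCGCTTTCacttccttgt
Psmb10, 73 bases before the start: aagcaaaggcGAAAGTGAAAgagaagatgc
Psmb10, 17 bases before the start: agtggggggtGAAAGCGAAAgtaggaagcg
Psme2: cctggagagtGAAAGCGAAAgctggggctg
Psmb3: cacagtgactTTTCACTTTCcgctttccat
The antioxidant response motif, searched as TGANNNNGC on both strands and known from the binding of Nfe2l1 and Nfe2l2 at proteasome genes, had a match in 15 of 25 constitutive subunits (60%) and 12 of 23 E2 genes (52.2%), against 40.4% of all promoters. These 23 E2 genes are not the tested E2 genes. Promoters of the tested Ube2o, Ube2r2 and Ube2v2 were not matched, and the untested Ube2s, Ube2t and Ube2d2b, each with this motif, are among the 23. The subunits searched lack Psma7 and Psmd6.

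The E2 enzymes held most of the members that passed. Of 23 tested genes of the E2 family, 4 were lower and 1 higher in the orbital layer, 18 did not pass, and the median was -0.24, with 16 below 0. Over all genes tested, 3.59% were lower and 4.09% higher, 7.68% in all, and the E2 count was not tested against that share. Ube2d1 showed the largest difference of all members. It belongs to a group of broadly acting E2 enzymes that start ubiquitin chains with many ligases. Its intensity was 259.6, 273, 516 and 290.3 in the global and 153, 150.4, 111 and 136 in the orbital captures, so every orbital capture was under every global capture and global capture 3 stood high. The means were 335 ± 121 (SD, n = 4) and 137 ± 19.3, a 2.34-fold lower level in the orbital layer (-1.23 ± 0.21, adjusted p = 0.00290). It passed on leaving out any 1 capture (adjusted p 0.00353 to 0.0114) and with orbital captures 1 and 2 alone. A second probe set of Ube2d1, with a mean of 9.19, was too dim to be tested, and with both averaged the call was lost (-0.95, adjusted p = 0.0975).

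Ube2d2, its close relative, lay on the other side without passing. It had 196, 207, 147 and 143 in the global and 255, 179.6, 243 and 228 in the orbital captures (0.39 ± 0.17, adjusted p = 0.199). Another probe set of Ube2d2 differed by 0.28. The genes of this group are closely similar in coding sequence, and signal shared between their probe sets would leave their separate levels uncertain. Whether signal was shared was not tested. The sequence before Ube2d1 is shown as that of the member furthest below the global layer, the 250 bases at chr20:17308209-17308458, plus strand (RefSeq, GRCr8, 5′ to 3′), with no motif match:
Ube2d1: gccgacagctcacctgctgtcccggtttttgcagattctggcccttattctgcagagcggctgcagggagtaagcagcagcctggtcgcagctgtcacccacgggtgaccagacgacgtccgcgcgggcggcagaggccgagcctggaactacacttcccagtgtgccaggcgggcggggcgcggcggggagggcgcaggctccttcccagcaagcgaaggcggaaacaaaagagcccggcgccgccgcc

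The other E2 genes that passed as lower differed by less. Ube2q2 had 175.5, 200.4, 297 and 223.5 in the global and 138, 155, 111 and 130.0 in the orbital captures, without overlap (-0.73 ± 0.18, adjusted p = 0.0249). Ube2g1, which extends ubiquitin chains on targets of cullin ligases, had 890.4, 751, 966 and 771 against 590.3, 510.2, 620.2 and 579 (-0.55 ± 0.13, adjusted p = 0.0176), without overlap. Ube2b, a Rad6 enzyme that works with the Ubr ligases and on histone H2B, had 1633, 1461, 1484 and 1356 against 1222, 850.1, 997 and 1138. Its layers did not overlap (-0.51 ± 0.14, adjusted p = 0.0371). A second probe set of Ube2b, with a mean of 513, differed by -0.02 (adjusted p = 0.946), so its probe sets disagreed. Its near-identical relative Ube2a differed by -0.24 (adjusted p = 0.456).

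These 3 calls depended on single captures. Ube2q2 did not pass when global 3, global 4, orbital 1, orbital 3 or orbital 4 was left out (adjusted p 0.0505 to 0.0778), nor Ube2g1 when global 1, global 3 or orbital 2 was (0.0517 to 0.0595). For Ube2b this was so for each of the 4 global captures and for orbital 2 and orbital 3 (0.0504 to 0.111). With orbital captures 1 and 2 alone 0 of the 3 passed. With the probe sets of a gene averaged, the calls of Ube2g1 (adjusted p = 0.273) and Ube2b (0.135) were lost as well. These averages took in dim probe sets. The other probe set of Ube2g1 (mean 24.6) and the dimmest of Ube2b (mean 29.2) were too dim to be tested.

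Ube2o was the E2 gene that passed as higher in the orbital layer. It codes for a large enzyme that joins E2 and E3 activity and is known for remodelling the proteome of maturing red blood cells. It had 100.3, 151, 147 and 131 in the global and 194, 191.5, 252 and 178 in the orbital captures, with no overlap. The means were 132 ± 22.9 (SD, n = 4) and 204 ± 32.9, a difference of 0.63 ± 0.17 (adjusted p = 0.0412). It did not pass when global 1, global 3, global 4, orbital 1, orbital 2 or orbital 3 was left out (adjusted p 0.0585 to 0.124). The red blood cell gene Hbb differed by 0.01 ± 0.45 (SE) and Alas2 by 0.01 ± 0.28, and the part of red blood cells was not tested.

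**Figure D3:**
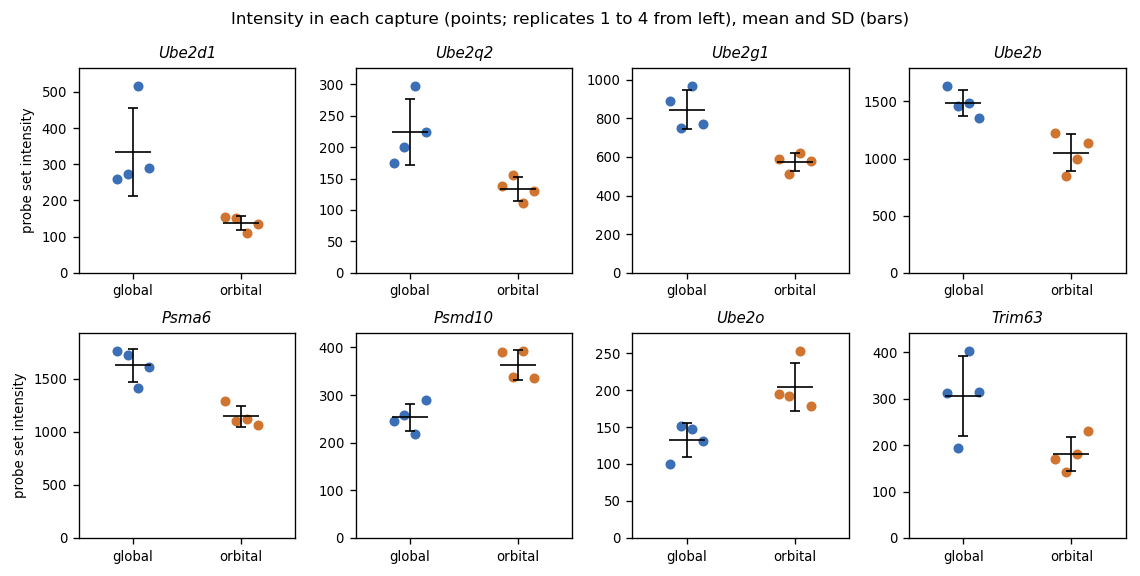
Intensity of the probe set (y axis, linear from 0) in each of the 4 global and 4 orbital captures (points) for the 7 members that passed and Trim63, with the mean and SD as bars. The layers are apart in all panels except Trim63, where global capture 2 (194) lies under orbital capture 4 (229.7).

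Of the 18 E2 genes that did not pass, Ube2e2, Ube2j1 and Ube2l3 had no overlap between layers. The same held for 14.3% of all genes tested, those that passed included, and the 3 genes are not set apart from that share. Ube2e2 had 60.4, 66.8, 56.2 and 62.5 in the global and 49.1, 38.6, 19.5 and 25.9 in the orbital captures (-0.95 ± 0.29, adjusted p = 0.0690). It passed with the prefix as a fixed replicate block (0.0479) and without orbital capture 1 (0.0381), but in no other alternative. Its adjusted p was 0.140 without a filter and 0.434 with orbital captures 1 and 2 alone. Orbital captures 2, 3 and 4 of Ube2e2 lay under the intensity of 39.4 at which the filter was set. It was thus tested through its level in the global captures, and the size of its difference is uncertain. Ube2j1, an E2 of the endoplasmic reticulum, differed by -0.52 (adjusted p = 0.166), and Ube2l3, which charges ligases of the HECT and RBR kinds, by -0.18 (adjusted p = 0.425). On the other side Ube2r2, an E2 of SCF ligases, had 131, 104, 155 and 177 against 169, 179.7, 234 and 248.7 (0.56 ± 0.19, adjusted p = 0.102). Ube2r2 passed with the prefix as a fixed replicate block (0.0295) but in no other alternative. Of the enzymes that carry other modifiers, Ube2m, the main E2 of NEDD8, had 85.4, 49.1, 82.4 and 69.3 in the global and 102, 81.9, 82.1 and 90.3 in the orbital captures (0.34 ± 0.21, adjusted p = 0.374). Ube2f, the other NEDD8 E2, had 278, 324, 249.5 and 304 against 261, 311, 267 and 283 (-0.04 ± 0.13, adjusted p = 0.902). The layers overlapped for both. Ube2v2, an E2-like partner of Ube2n with no catalytic cysteine, had 198, 197, 174 and 132 against 187, 167, 105 and 127 (-0.28 ± 0.20, adjusted p = 0.473), with overlap, and Ube2n differed by -0.11. The remaining 10 (Ube2a, Ube2e3, Ube2g2, Ube2h, Ube2j2, Ube2k, Ube2l6, Ube2q1, Ube2z and Ube2d2) differed by -0.32 to 0.39.

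The muscle ligases were measured unevenly. Trim63, which ubiquitinates proteins of the thick filament, had 312, 194, 402 and 315 in the global and 169, 143, 182 and 229.7 in the orbital captures. All orbital captures except capture 4 were under every global capture. The means were 306 ± 85.3 (SD, n = 4) and 181 ± 36.2, and the difference of -0.73 ± 0.21 missed the threshold (adjusted p = 0.0538). It passed in 5 of 20 alternative fits and did not in 15. It passed without global capture 2 (adjusted p = 0.00778) or without orbital capture 4 (0.0383). It did so too with robust eBayes (0.0498), with the filter at the 60th percentile (0.0405) and with the prefix as a fixed replicate block (0.0237). It did not pass with the prefix as a random block (0.0688), with quantile normalization (0.0521), without a filter (0.0856) or without a trend (0.0964). Nor did it pass when any other capture was left out (up to 0.153). Fbxo32 had 19.1, 22.8, 3.8 and 9.1 in the global and 1.5, 5.1, 5.9 and 0.9 in the orbital captures. It was not tested, since it lay under the filter, and all 4 orbital captures and 2 of the 4 global captures were under the highest bacterial control probe set of their array, so no difference can be read from it. Among 7 tested transcription factors known to drive proteasome or atrophy genes, such as Foxo3, Foxo4 and Nfe2l1, 0 passed, with a range of -0.46 to 0.13 and 1 at an unadjusted p under 0.05.

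The promoter of Trim63 held a match to the forkhead motif (GTAAACA, or TGTTTAC on the other strand), which FOXO factors bind, and 3.76% of all promoters and 2 of 60 member promoters did. The other member was Psme2. The 250 bases before the start of Trim63 are shown for that match, at chr5:151816986-151817235, plus strand (RefSeq, GRCr8, 5′ to 3′), with the forkhead match first and a match to the antioxidant response motif after it in capitals:
Trim63: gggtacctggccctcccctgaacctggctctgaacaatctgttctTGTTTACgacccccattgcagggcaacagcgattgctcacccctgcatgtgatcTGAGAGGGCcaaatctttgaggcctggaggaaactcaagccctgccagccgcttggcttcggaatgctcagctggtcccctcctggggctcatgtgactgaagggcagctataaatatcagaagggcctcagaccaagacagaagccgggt

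Genes that act with the members were counted in lists of the same pathway, where again a few genes passed in each direction. The share beside each count below is 3.59% of all genes tested lower and 4.09% higher, 7.68% in all. No list was tested against that share. Among 13 genes of proteasome assembly, inhibition and delivery, 1 was lower, 1 higher and 11 did not pass, with a median of 0.00. Ecpas, an adaptor that binds the 26S proteasome, had 1336, 1036, 995 and 974 in the global and 759.9, 676, 547 and 687 in the orbital captures, without overlap (-0.70 ± 0.14, adjusted p = 0.00903). Ubqln4, a shuttle that brings ubiquitinated proteins to the proteasome, had 155, 116, 147 and 119 against 289.6, 201, 189.7 and 208, all higher in the orbital captures (0.71 ± 0.17, adjusted p = 0.0209). Ecpas passed on leaving out any 1 capture, and Ubqln4 did not when orbital 1 or global 4 was left out (0.0546 and 0.0639). Ecpas did not pass with orbital captures 1 and 2 alone (0.100).

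Of 32 deubiquitinases, which take ubiquitin off again, 3 were higher, 1 lower and 28 did not pass (median -0.07). Usp1, known from DNA repair, had 182, 211, 196 and 134 in the global and 497, 366, 396.5 and 313 in the orbital captures. Every orbital capture was above every global capture (1.12 ± 0.18, adjusted p = 0.00189), and the call held on leaving out any 1 capture and with orbital captures 1 and 2 alone. Usp11 had 275, 336, 263 and 341 in the global and 455, 476, 452 and 454 in the orbital captures (0.60 ± 0.13, adjusted p = 0.0109). Usp20 had 263, 293, 236 and 240.5 against 466, 378, 489 and 319 (0.66 ± 0.15, adjusted p = 0.0195). Both were higher in every orbital capture. Usp24 had 183, 188, 239 and 213 against 109, 135, 147 and 132, all lower in the orbital captures (-0.65 ± 0.15, adjusted p = 0.0187). Usp11 passed on leaving out any 1 capture. Usp20 did not when global 3, global 4, orbital 1 or orbital 3 was left out (0.0508 to 0.0655), nor Usp24 when global 3 or orbital 1 was (0.0581 and 0.0642).

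The genes of the COP9 signalosome, which removes NEDD8 from cullin ligases, made up the calls among 20 tested SUMO and NEDD8 genes, of which 3 were lower and 0 higher (median -0.09). These were Cops5, the catalytic one (-0.62 ± 0.15, adjusted p = 0.0237), Cops3 (-0.62 ± 0.14, adjusted p = 0.0195) and Cops7a (-0.54 ± 0.14, adjusted p = 0.0269). All 7 COP9 subunits tested had a difference below 0 (-0.62 to -0.16), a subset picked out after its values were seen. Cops5 had 424, 409, 480.2 and 409 in the global and 363, 244, 236 and 290.4 in the orbital captures. Cops3 had 344, 299, 381 and 286 against 225, 207, 241 and 179.9. Cops7a had 339, 292, 346 and 257 against 219, 215.5, 196 and 209.5. The layers did not overlap for any of the 3. Cops3 did not pass when global 1, global 3 or orbital 4 was left out (0.0551 to 0.0663), nor Cops5 when global 1, global 3, orbital 2 or orbital 3 was (0.0573 to 0.0749). For Cops7a this was so for each of the 4 orbital captures and for global 1 and global 3 (0.0504 to 0.0847).

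Of 40 other ligase genes, 2 were lower, 1 higher and 37 did not pass (median -0.06). Those lower were Klhl31, a muscle adaptor of the kind that cullin 3 ligases use (-0.60 ± 0.15, adjusted p = 0.0267), and Cul3 itself (-0.50 ± 0.14, adjusted p = 0.0394). Cul3 had 1712, 1499.6, 2004 and 1477 in the global and 1235, 1298, 1007 and 1164 in the orbital captures. Klhl31 had 889, 718, 1039.9 and 729 against 597, 485, 508 and 629, and neither gene overlapped between the layers. The gene that was higher was Rnf115, a RING ligase, with 801, 667, 581 and 556.5 against 965, 881, 923 and 862 and no overlap (0.49 ± 0.13, adjusted p = 0.0409). Klhl31 did not pass when global 1, global 3, orbital 2 or orbital 3 was left out (0.0734 to 0.0797), nor Cul3 when global 1, global 3, orbital 1, orbital 3 or orbital 4 was (0.0703 to 0.118). Rnf115 passed when global 1 was left out, but not for any of the other 7 captures (0.0594 to 0.113).

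Other routes of protein breakdown were counted beside the 7.68% called over all genes tested, and from lists this short a count of 0 or 1 is not set apart from that share. Of 12 genes of the p97 segregase and its cofactors, 1 was lower and 0 higher. It was Faf1, a ubiquitin-binding cofactor of p97, with 434, 347, 409 and 301 in the global and 271.5, 240.0, 229.9 and 193 in the orbital captures and no overlap (-0.67 ± 0.15, adjusted p = 0.0183), which did not pass when global 1, global 3 or orbital 4 was left out (0.0518 to 0.0634). Of 22 genes of autophagy and lysosomal proteases, 1 was lower and 0 higher, the protease cathepsin L. Its gene Ctsl had 1043, 812, 1190.2 and 905 against 663, 523, 769 and 683, without overlap (-0.58 ± 0.15, adjusted p = 0.0357), and did not pass when global 1, global 3, global 4, orbital 1, orbital 2 or orbital 4 was left out (0.0539 to 0.107). The median of this list was 0.10, with 14 of 22 above 0 and 5 at an unadjusted p under 0.05. These 5 were Ctsl and Lamp2 (-0.35), lower, and Ctsh (0.48), Ctsd (0.44) and Atg4b (0.40), higher in every orbital capture without passing. The 9 calpains tested, calcium-dependent proteases, gave 0 calls (-0.45 to 0.56, with 1 at an unadjusted p under 0.05), and of the ubiquitin and E1 genes 1 was tested, with a difference of 0.05.

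**Figure D4:**
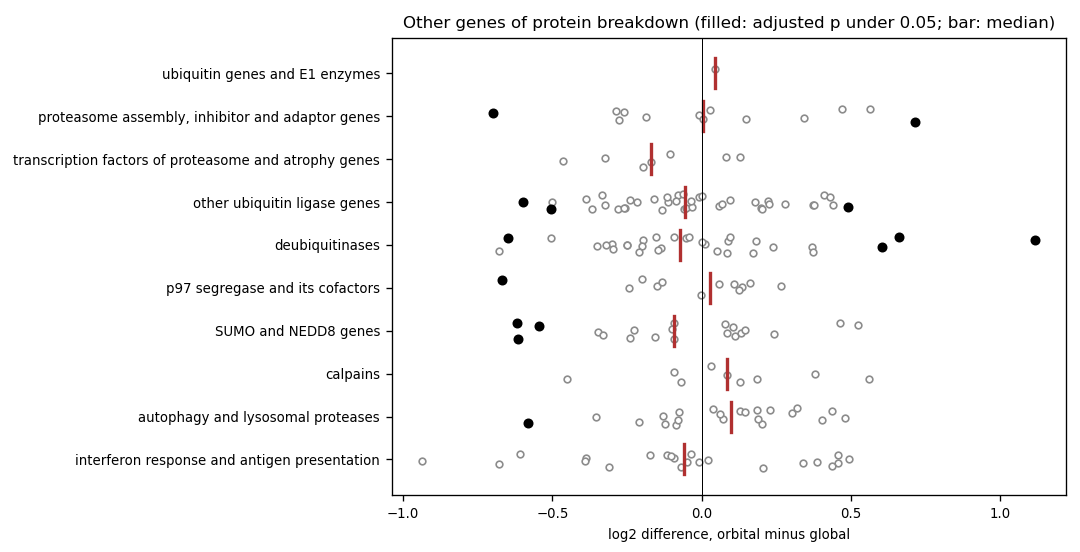
Log2 difference of orbital minus global layer (x axis) of each tested gene in 10 lists of genes that act with the members (rows), with filled points for an adjusted p under 0.05 and a bar at the median of the list. The medians lie between -0.17 and 0.10, and the filled points lie on both sides of 0, the filled point furthest right being Usp1 (1.12) and the one furthest left Ecpas (-0.70).

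Whether the layer difference itself differed between the prefixes was tested by an interaction term in limma. It passed for 0 of the 62 members and 0 of 9520 probe sets, with 3 members (Ube2q2, Ube2l6 and Ube2d1) and 290 probe sets at an unadjusted p under 0.05. The difference of Ube2d1 was -0.81 in the R2 and -1.65 in the R3 captures, and that of Ube2q2 was -0.35 and -1.10. The 4 E2 genes that were not tested were dim throughout. Ube2c, Ube2s and Ube2t, E2 enzymes of dividing cells, had 15.6 to 56.3, 3.5 to 12.6 and 1.9 to 18 over the 8 captures, and Ube2d2b had 1.4 to 17.2. Psmc3ip and Psme3ip1, which the symbols' prefix took in although they code for binding partners and not subunits, did not pass. Psmc3ip had 146.5, 138, 121 and 129.9 in the global and 166, 147, 125 and 145 in the orbital captures (0.12, adjusted p = 0.696). Psme3ip1 had 220.0, 247, 198 and 182 against 190.4, 211.5, 170.2 and 170.2 (-0.19, adjusted p = 0.506), and both overlapped. Psmb6, Psme3 and Ube2d3 were not among the members, since each of their probe sets carried several symbols.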

How the data were processed

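Laser captures of the 2 layers were grouped by the labels' titles (4 global, 4 orbital), and replicates were numbered in accession order. The authors deposited linear intensities, 1 value for each probe set of an array; the software that summarised the probes is not given in the sources used here. Their 2% trimmed mean varied by no more than 0.0039% over the 8 arrays, so the deposited intensities were not rescaled. From 15923 probe sets, 57 controls were left out. Probe sets under the 40th percentile of mean log2 intensity (an intensity of 39.4) were not tested, which left 9520. The log2 of the deposited intensity + 1 was fitted with limma 3.58.1 in R 4.3.3 (lmFit, eBayes with an intensity trend), adjusted by Benjamini-Hochberg, threshold 0.05; the procedure was tested on simulated data. Because log2(intensity + 1) is used, changes of dim genes are understated.

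Gene names came from the platform annotation, which can be old: 12783 probe sets had 1 symbol, 312 several and 2771 none. Of the single symbols, 12748 were found in the RefSeq table and 0 changed. Promoters (RefSeq, GRCr8) were matched for 60 of the 67 members. Values per capture were given for members that passed, the catalytic and interferon-inducible beta subunits, the activators, Trim63, Fbxo32, the 2 smallest p-values of each role group, and the passing genes of each pathway list; other genes given with values were chosen after their values were seen. Members and lists were chosen with earlier results of these data known. Orbital captures 3 and 4 have nearly the same title; the SD of their log2 difference was 0.458, against 0.425 to 0.449 for the other orbital pairs, so both were counted. Alternatives covered normalization, pseudocount, filter, variance moderation, the title prefix as a replicate block, averaged captures, the probe set used, fold size and each capture left out. The highest bacterial control probe set of an array was used as a mark of background after the data were seen.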

Additional observations from a re-analysis of the deposited data

Results flagged for a closer look

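Among the genes given with values, 86 groups of 4 captures (43 genes in the 2 layers) were examined for a capture far from the others by Dixon's 95% critical value, and 4 groups had one. Chance alone gives about 1 in 20 groups. Ube2d1 had 515.8 in global capture 3, where the other global captures had 259.6 to 290.3; without that capture it still passed. Psmd1 had 216.4 in global capture 3, with 162.5 to 171.1 in the others. Ecpas had 1336 in global capture 1, with 974 to 1035.9 in the others, and Usp11 had 476.4 in orbital capture 2, with 451.6 to 455 in the others. Both Ecpas and Usp11 passed without the capture in question.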

How the results depend on the processing

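The main counts were 2 members higher and 5 lower. The number higher was 1 without a filter, 0 without an intensity trend, 1 with orbital captures 3 and 4 averaged, 0 with orbital captures 1 and 2 alone, 1 at 1.5-fold or more, and 0 to 2 with each capture left out. The number lower was 2 without a trend, 2 with captures averaged per layer and prefix, 3 with orbital captures 3 and 4 averaged, 2 with the mean over probe sets (which lost Ube2b, Ube2g1 and Ube2d1), 1 with orbital captures 1 and 2 alone, 2 at 1.5-fold or more, and 2 to 5 with each capture left out. The probe sets called (705) were 363 with orbital captures 1 and 2 alone, an alternative chosen after seeing the data, and 461 (without global capture 3) to 725 with each capture left out. The prefix as a fixed replicate block gave 3 members higher and 7 lower (adding Trim63, Ube2e2 and Ube2r2, with all 7 main calls kept), and as a random block 2 and 5. The prefix did not clearly pair captures: deviations of captures with the same prefix correlated by 0.05 on average (-0.01 to 0.11). Those with different prefixes correlated by -0.05 (-0.13 to 0.045). Deviations were taken from each layer's mean, so the averages mirror each other and are not separate observations. Over 42 named results and 823 alternative fits, 679 kept direction and side of the threshold, 127 lost the call, 6 gained it and 11 changed sign. The sign changes, none of a gene that passed, came with each capture left out for Psmb8 (-0.17 to 0.084), Psmb10 (-0.090 to 0.25), Psme1 (-0.061 to 0.051) and Ube2f (-0.11 to 0.019). With only orbital captures 1 and 2 kept, Psmb8 was at 0.029, Psmb10 at -0.034 and Ube2v2 at 0.030. The cause was not tested. With 4 arrays per layer the precision is limited by their number, and probe sets near background give uncertain sizes.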
